A study of Mus musculus with 9 samples.

Results

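Day 10 of interleukin 5 (IL-5) was compared with day 4 of IL-5 in cultured low-density bone marrow (LDBM) cells, a marrow fraction enriched for progenitors of the blood lineages. The comparison used 6 of the 9 arrays of the series, chosen by their titles: 3 arrays from cells stimulated for 10 days and 3 from cells stimulated for 4 days. Both groups came from pooled marrow of Balb/c mice, and all cells were first grown for 4 days in SCF (stem cell factor) and FLT3L (FLT3 ligand) at 100 ng/mL. The remaining 3 arrays, from cells after this expansion and before IL-5, give a starting level for each gene and add to the estimate of the spread. The eosinophil markers Epx and Prg2 stood at 13.15 and 13.90 at day 10. No sorting step is given in the labels, so each array holds RNA of a mixed culture. The labels name no separate animals or cultures behind the 3 arrays of a group, so the p-values measure the spread among these samples, and that spread may be technical. Effects of IL-5 and of 6 further days in culture cannot be told apart, since cells cultured without IL-5 are not analysed here. The sources used here give neither the sex and age of the mice nor the dose of IL-5, nor whether SCF and FLT3L were kept after the expansion.

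Eosinophils are granulocytes that arise in bone marrow from progenitors shared with other blood lineages. IL-5 signals through a receptor made of its own alpha chain, Il5ra, and the common beta chain, Csf2rb, and it supports the growth, maturation and survival of committed eosinophil precursors. Granule proteins such as eosinophil peroxidase are made early in this course, whereas the surface receptors that guide eosinophils into tissue mark later stages. FLT3 ligand, by contrast, expands progenitors that can also give rise to dendritic cells, monocytes and lymphocytes.

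Values are log2 signals, on which a difference of 1 is a 2-fold change, and ± gives the SD over 3 arrays unless SE is written. A gene is said to rise or fall when the limma test gave an adjusted p under 0.05 and the change was at least 2-fold. Of 19938 genes, 1281 passed (6.42%), 487 of them higher at day 10 (2.44%) and 794 lower (3.98%). In 1280 of the 1281 the arrays of the 2 days did not overlap, against 44.2% of all genes. The call rule, applied to the same arrays, largely builds this in, so it is no separate support for the calls. The median change over all genes was 0.02. At 4-fold or more, 103 genes rose and 134 fell. The split between rises and falls depended on the scaling: falls made up 62% of the calls with the deposited values, 53.9% after quantile normalization and 53% with each array's median subtracted, which moved the median of all genes by 0.11.

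The third day 10 array stood apart from its group. Genes with an SD over 0.5 numbered 274 at day 10 against 39 at day 4 and 89 before IL-5, and 247 of the 274 were highest in day 10 replicate 3. In that array 80 genes lay more than 1 log2 unit above both other day 10 arrays, compared with 2 genes for replicate 1 and 1 for replicate 2. The widest gap was in decorin, Dcn, a matrix proteoglycan of fibroblasts, at 4.96, 4.98 and 9.33 in replicates 1 to 3. The mannose receptor of macrophages, Mrc1, stood at 8.07, 7.43 and 9.86, the macrophage glycoprotein Gpnmb at 9.41, 8.93 and 10.75, and the scavenger receptor Msr1 at 7.10, 6.92 and 8.86. Of 26 monocyte and macrophage markers, 23 were highest in replicate 3, and the mean level of that list was 7.72, 7.57 and 8.47 in the 3 arrays. Stromal and endothelial markers averaged 6.05, 5.86 and 6.75, with 13 of 18 highest in replicate 3. Without this array 499 genes rose and 968 fell, 476 and 781 of them shared with the full comparison, and list counts that move with it are given below both with and without it. The part of this array's macrophage and stromal signal in those counts was not tested.

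**Figure D1:**
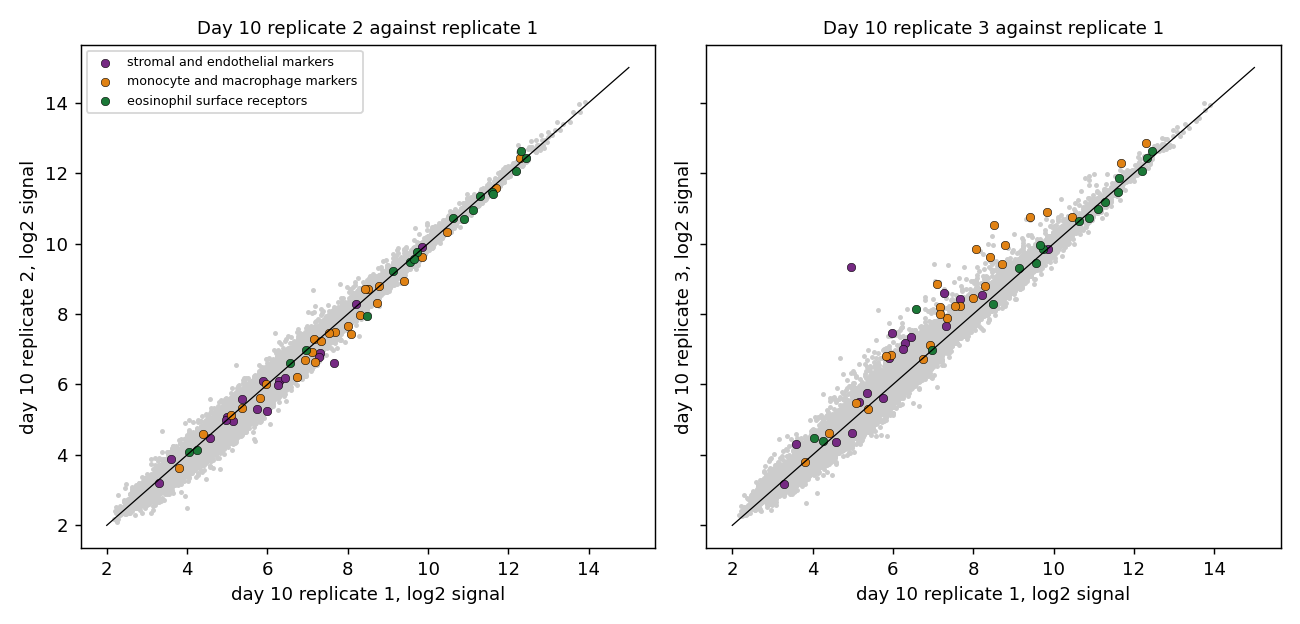
The log2 signal of each of 19938 genes (grey points) in day 10 replicate 2 (left) and replicate 3 (right) is plotted against day 10 replicate 1, with a line of equality. Stromal and endothelial markers (purple) and monocyte and macrophage markers (orange) lie mostly above the line in replicate 3, Dcn being the point at 9.33, while eosinophil surface receptors (green) lie near the line on both sides, apart from Cysltr1 (6.57 against 8.14).

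Surface receptors of eosinophils rose in 12 of 18 measured genes and fell in 1, and their median change of 1.28, against 0.02 over all genes, was the highest of the 34 gene lists described. Ccr3, the receptor for eotaxins that draws eosinophils into tissue, had the largest change of any named gene. It stood at 7.39, 7.19 and 7.05 on the day 4 arrays and at 12.44, 12.42 and 12.62 on the day 10 arrays. All day 10 arrays were far above all day 4 arrays, a 38.8-fold difference with a log2 change of 5.28 ± 0.11 (SE) and an adjusted p of 3.19e-11. Il5ra, the IL-5-binding chain of the receptor, went from 6.30, 6.38 and 6.48 to 9.55, 9.48 and 9.45, which is an 8.64-fold rise (adjusted p = 1.30e-09). Siglecf, a sialic acid receptor used to identify mouse eosinophils, went from 8.61, 8.56 and 8.41 to 11.60, 11.46 and 11.47, which is 7.91-fold (adjusted p = 7.94e-10). The groups of these 3 genes did not overlap, and the spread within a day was small beside the difference between days. In a bulk culture, more cells that express a gene and more of its RNA in each cell cannot be told apart, and the same holds in reverse for every fall below.

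The promoters of Ccr3 and Il5ra, the receptor genes with the largest changes, are shown because each holds the letters AGATAA of a GATA site. They are RefSeq sequences of GRCm38.p6, 250 bases before to 50 after the gene start, read on the gene's strand, with AGATAA in capitals. Ccr3 lies on chr9:124021721-124022020 on the plus strand with the match at -29 from the start, and Il5ra on chr6:106748988-106749287 on the minus strand with the match at -73.
Ccr3: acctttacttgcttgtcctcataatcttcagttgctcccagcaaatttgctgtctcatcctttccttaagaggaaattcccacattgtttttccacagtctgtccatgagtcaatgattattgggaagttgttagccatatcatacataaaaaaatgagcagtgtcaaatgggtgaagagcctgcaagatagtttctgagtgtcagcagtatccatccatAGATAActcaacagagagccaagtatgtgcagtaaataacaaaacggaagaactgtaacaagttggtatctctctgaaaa
Il5ra: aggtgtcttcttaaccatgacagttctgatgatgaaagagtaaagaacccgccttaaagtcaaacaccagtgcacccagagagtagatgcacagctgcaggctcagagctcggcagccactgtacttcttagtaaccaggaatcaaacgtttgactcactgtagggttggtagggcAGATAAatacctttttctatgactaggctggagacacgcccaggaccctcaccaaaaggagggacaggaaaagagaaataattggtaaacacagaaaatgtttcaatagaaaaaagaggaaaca
Searched on both strands, AGATAA was in 4 of 14 receptor promoters matched by symbol, and was absent from those of Siglecf, Ptgdr2 and Cd300lf. The same letters were in 8.29% of 386 promoters of genes that rose, in 9.35% of 620 of genes that fell and in 9.55% of all 15614. GAGGAAG, the letters of a PU.1 site, was in 7 of 14 receptor promoters and in 13% of all promoters. Of the genes that rose, 18.9% held GAGGAAG and of those that fell, 17.6%. A match describes these letters in this window and is not a measured binding site.

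The other receptors that rose changed by less. Ptgdr2, the prostaglandin D2 receptor CRTH2, changed by 2.50 and had not moved before, with 5.69 ± 0.219 in the cells without IL-5, 5.74 ± 0.260 on day 4 and 8.24 ± 0.268 on day 10. Cd300lf, an inhibitory receptor of myeloid cells, rose by 2.41. The chemokine receptor Ccr1 rose by 1.48, the leukotriene B4 receptor Ltb4r1 by 1.37, the F4/80 antigen Adgre1 by 1.32 and the nucleotide sugar receptor P2ry14 by 1.22. Both common beta chain genes rose, Csf2rb by 1.26 and its close copy Csf2rb2 by 1.31, though an array can mix the signals of such copies. The paired receptor Pirb rose by 1.15. The alpha chains for GM-CSF and IL-3, the cytokines that share the beta chain, did not pass, with Csf2ra at 0.00 and Il3ra at -0.46. The complement receptor C3ar1, at 11.06 ± 0.105 by day 4 after 6.66 before IL-5, stood 0.57 higher at day 10 and did not pass.

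Cysltr1, the receptor for cysteinyl leukotrienes, was the receptor that fell, and it rests on uneven arrays. It stood at 9.07, 8.96 and 9.08 at day 4 and at 6.57, 6.61 and 8.14 at day 10. The day 10 arrays were all lower, but replicate 3 lay between the other 2 and day 4. The change was -1.93 ± 0.31 (SE) with an adjusted p of 0.000336, and -2.44 without replicate 3.

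Granule protein genes, unlike the receptors, did not pass: 0 of 7 measured genes rose or fell, with a median of 0.31. An adjusted p under 0.05 was found in 5 of the 7, against 31.9% of all genes. Epx, eosinophil peroxidase, stood at 12.93, 12.81 and 12.78 at day 4 and at 13.15, 13.23 and 13.06 at day 10. The arrays did not overlap, but the change was 0.31 (95% interval 0.09 to 0.53, adjusted p = 0.0353), after a level of 8.29 ± 0.118 before IL-5. Prg2, which encodes major basic protein, stood 0.49 higher, its homologue Prg3 0.67 and the ribonuclease Ear6 0.82. Rnase2a stood 0.55 lower, with -0.55 and a day 10 level of 4.75, close to the lower quartile of 4.66 of the gene means. The ribonuclease genes resemble each other so closely that probes may cross-hybridize, and Ear1, Ear2 and Ear10 had no probe set naming them alone. Epx and Prg2 lay near the top of the array range, where signals can be compressed.

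**Figure D2:**
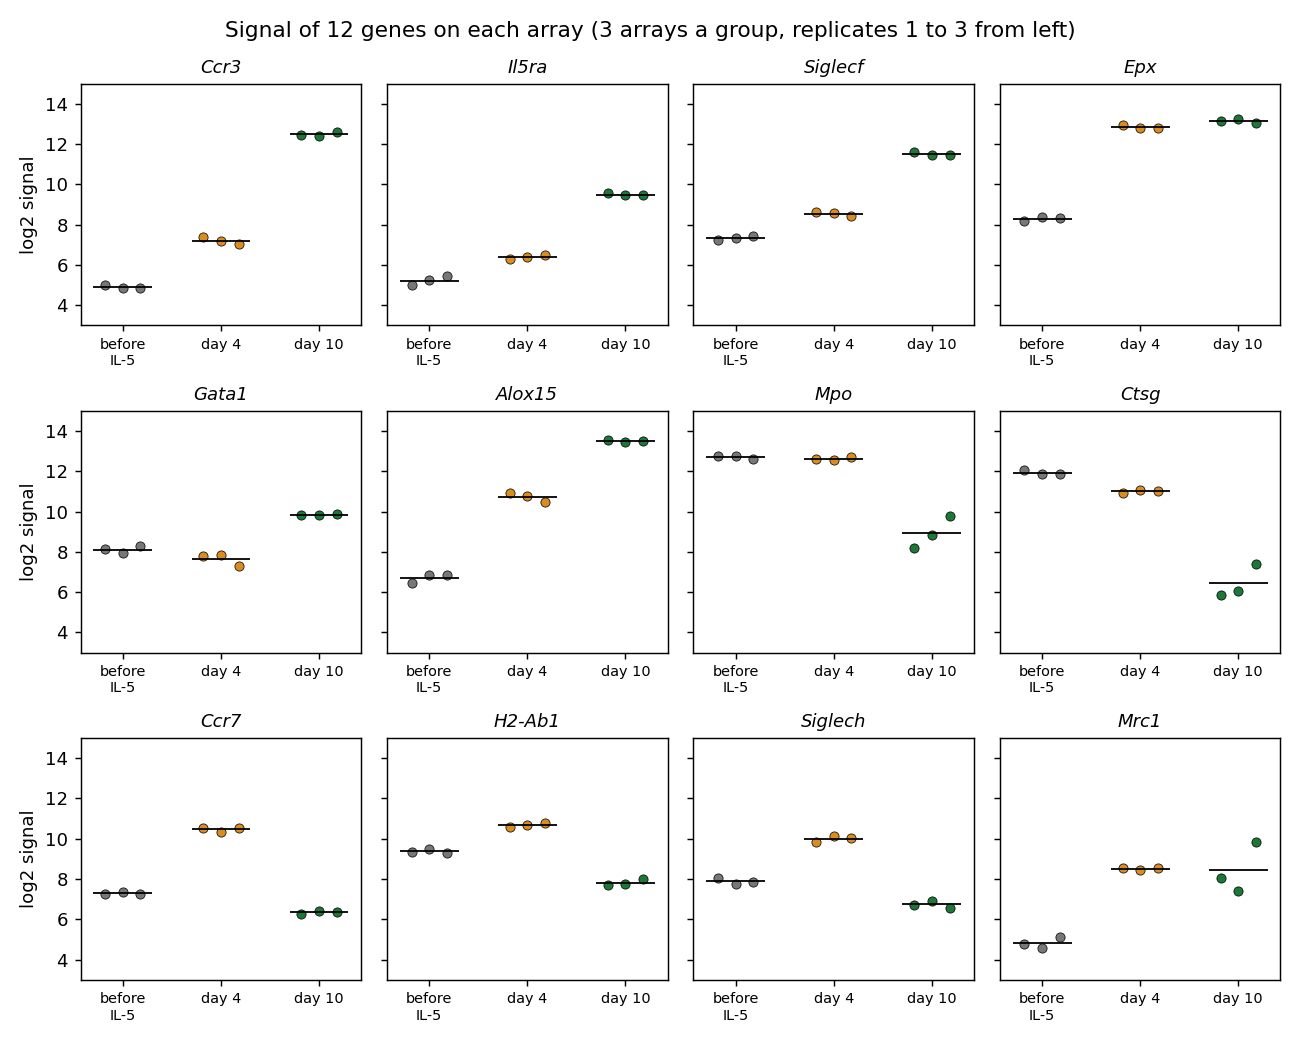
Log2 signal of 12 genes on each of the 9 arrays, grouped by time (before IL-5, day 4 and day 10), with points for replicates 1 to 3 from left to right and a bar at the mean. Ccr3, Il5ra, Siglecf, Gata1 and Alox15 stand above day 4 at day 10, Epx is nearly level between the days, Mpo, Ctsg, Ccr7, H2-Ab1 and Siglech stand lower at day 10, and Mrc1 ranges from 7.43 to 9.86 within day 10.

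Transcription factors of the blood lineages moved in both directions, with 5 of 22 higher, 5 lower and a median of 0.25. Gata1, needed for eosinophil formation, was at 8.12 ± 0.195 before IL-5 and at 7.79, 7.84 and 7.32 at day 4. It stood at 9.84, 9.81 and 9.89 at day 10, a 4.59-fold rise over day 4 (adjusted p = 1.47e-07). Bhlhe40, a basic helix-loop-helix repressor, rose by 1.76. Cebpe, a C/EBP factor of terminal granulocyte maturation, went from 9.29 ± 0.070 to 10.70 ± 0.046, a change of 1.42. Trib1, an adaptor that promotes C/EBP-alpha degradation, rose by 1.21 and Id2, an inhibitor of helix-loop-helix factors, by 1.03. Id2 was close to 2-fold, at 0.97 after quantile normalization or without day 4 replicate 1 and 0.99 without day 10 replicate 1.

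Irf8, a factor of monocytes and dendritic cells, fell the most among these regulators. It stood at 10.53, 10.71 and 10.69 at day 4 and at 7.47, 7.63 and 7.95 at day 10, a log2 change of -2.96 ± 0.12 (SE; adjusted p = 2.60e-09). Tcf4, which directs plasmacytoid dendritic cells, fell by 2.79 and Irf4, a factor of dendritic cells and lymphocytes, by 2.13. Gfi1, a repressor that promotes neutrophil fate, fell by 1.96, from 7.74 ± 0.031 to 5.78 ± 0.044. Cebpa, which starts the granulocyte programme, fell by 1.05 but stood at -0.86 after quantile normalization and -0.94 with array medians subtracted, short of 2-fold. Spi1, encoding PU.1, was at 0.32, Cebpb at 0.87, Gata2 at 0.68 and Xbp1 at -0.39, and none of these 4 passed.

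Of 21 genes listed for IL-5 and STAT5 signalling, targets together with Stat5a and Stat5b, 5 rose and 3 fell. The feedback inhibitor genes Cish, Socs1 and Socs2 were among the rises, and the cyclin genes Ccnd1 and Ccnd2 among the falls. The median was 0.45, and 4 rose and 3 fell without day 10 replicate 3. Cish, an inhibitor induced by STAT5, stood at 6.86, 6.93 and 6.56 at day 4 and at 9.55, 9.47 and 9.58 at day 10, a 6.73-fold rise (adjusted p = 2.57e-09). Socs2 rose by 1.56, with 1.02 on its other probe set, and Socs1 by 1.18, whereas Socs3, a further feedback inhibitor, was at 0.12 and did not pass. The survival kinase gene Pim2 rose by 1.36. Bcl2l1, which encodes the anti-apoptotic protein BCL-XL, rose by 1.05 and stood at 0.98 without day 4 replicate 3. The cyclin genes Ccnd1 and Ccnd2, which drive entry into S phase, fell by 1.94 and 1.72. Egr1 fell by 1.02, with values from -0.79 to -0.99 under 5 of the alternatives, and Myc at -0.98 did not pass. Stat5a at -0.51 and Stat5b at 0.22 did not pass either. Of 20 survival and death genes, Bcl2l1 was the member that rose and Pmaip1, a pro-apoptotic BCL2 family gene, the member that fell (-1.07), and both counts went to 0 under at least 1 alternative. Without day 10 replicate 3, 0 of the 20 rose and 2 fell. Mcl1 stood 0.51 higher and Bcl2l11, which encodes BIM, at -0.76.

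**Figure D3:**
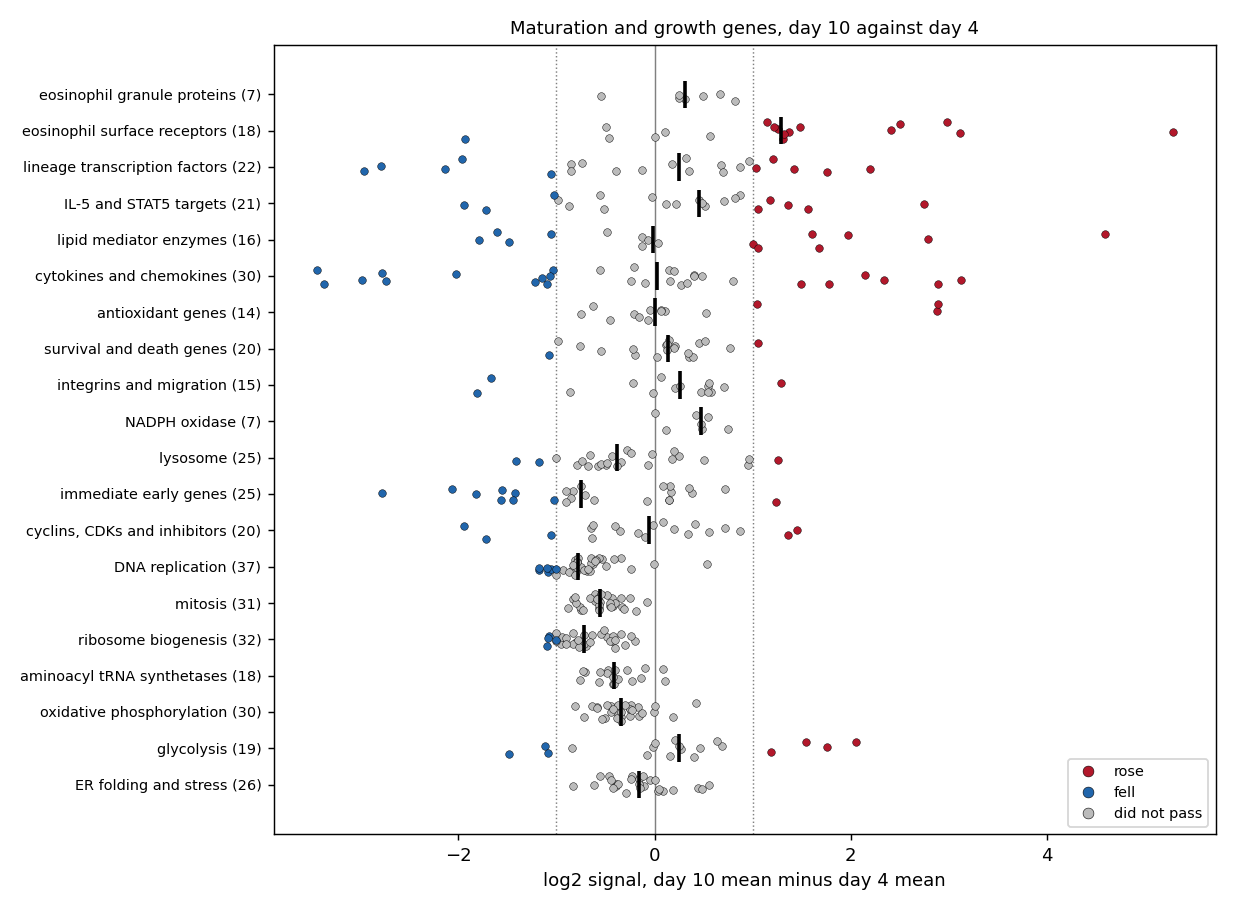
Change in log2 signal from day 4 to day 10 for the measured members of 20 gene lists of maturation and growth (number of genes in brackets), with red points for genes that rose, blue for genes that fell, grey for those that did not pass and a black bar at the median. Dotted lines mark 2-fold. The surface receptors have a median of 1.28, and the DNA replication, mitosis and ribosome biogenesis lists lie almost wholly below 0.

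Of 16 lipid mediator genes, 7 rose, among them Cyp4f18 and 3 of the lipoxygenase pathway, and 4 fell, among them the prostaglandin enzymes Ptgs2 and Hpgds, with a median of -0.02. Cyp4f18, which inactivates leukotriene B4, had the second largest rise of any named gene. It stood at 6.61, 6.67 and 6.44 at day 4 and at 11.24, 11.20 and 11.05 at day 10, a 24.0-fold difference (adjusted p = 1.23e-10). Alox15, the 15-lipoxygenase of eosinophils, went from 10.91, 10.75 and 10.46 to 13.54, 13.46 and 13.48, a 6.89-fold rise (adjusted p = 1.32e-08). Alox5, the 5-lipoxygenase that starts leukotriene synthesis, rose by 1.97, and Pla2g4a, the phospholipase that releases arachidonic acid, by 1.68. Pla2g7, the platelet-activating factor hydrolase, rose by 1.60 and the thromboxane synthase Tbxas1 by 1.05. Alox5ap, which presents the substrate to Alox5, lay at the limit with 1.00 and did not pass under 4 of the alternatives, with values from 0.90 to 1.00. The leukotriene C4 synthase Ltc4s stood at 0.04 and the leukotriene A4 hydrolase Lta4h at -0.13. Ptgs2, cyclooxygenase-2, fell by 1.79, and Hpgds, the prostaglandin D synthase, by 1.48. The lipid-sensing receptor Pparg fell by 1.60. Hpgds was at 7.04, 6.96 and 8.12 on the 3 day 10 arrays, highest in replicate 3. Ptgr1 (-1.05) stood between -0.87 and -0.99 under 3 of the alternatives.

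Among 30 cytokine and chemokine genes, 6 rose and 11 fell, with a median of 0.02. Csf1, the macrophage growth factor, stood at 6.89, 7.35 and 7.10 at day 4 and at 10.21, 10.27 and 10.23 at day 10, an 8.72-fold rise (adjusted p = 4.79e-09). Il1a rose by 2.89 from a dim level of 4.62 ± 0.142, and the IL-1 receptor antagonist Il1rn by 1.78. The chemokine Ccl6 rose by 2.34, to 13.27 ± 0.148, and the TNF family ligand Tnfsf14 by 2.14. Il4, a cytokine that eosinophils can store, rose by 1.49 on uneven arrays, at 6.20, 7.47 and 7.61 on day 10 against 5.89, 5.71 and 5.20 on day 4, while Il13 at 0.80 did not pass. The largest falls were in genes known from dendritic cells and macrophages. Ccl22 fell from 8.38 ± 0.143 to 4.93 ± 0.215 and Il12b, an IL-12 subunit, from 7.99 ± 0.049 to 4.62 ± 0.125. Their levels before IL-5 were 5.10 and 4.63, so both had come back to near their start. Ccl5 fell by 2.98, Il1b by 2.78, Cxcl16 by 2.74 and Cxcl10 by 2.02. The eotaxin gene Ccl24 (-1.03), Vegfa (-1.06) and Il12a (-1.10) passed at the limit and each missed 2-fold under at least 1 alternative.

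Redox and sugar transport genes rose for a few members of each list. Of 14 antioxidant genes, 3 rose and 0 fell, with a median of 0.01. The cystine transporter Slc7a11 went from 8.80, 8.30 and 8.64 to 11.59, 11.47 and 11.34, a 7.39-fold rise (adjusted p = 1.71e-08). Nqo1, a quinone reductase, had stood at 8.14 ± 0.324 before IL-5 and 6.95 ± 0.197 at day 4, and rose to 9.83 ± 0.046, above both earlier times. Taldo1, of the pentose phosphate pathway, rose by 1.04 and stood at 0.97 without day 4 replicate 1. The other 11 did not pass, among them Hmox1 at -0.45, Prdx1 at -0.75, Gclc at -0.63, Gclm at 0.52 and Srxn1 at 0.11. Of the 14, 7 lay above 0 and 7 below. In the glycolysis list 4 of 19 rose and 3 fell, with a median of 0.25: the lactate exporter Slc16a3 rose by 2.05, the glucose transporters Slc2a3 and Slc2a1 by 1.76 and 1.54, and hexokinase 2, Hk2, by 1.19. Hexokinase 3, Hk3, fell by 1.48, Pfkfb3 by 1.12 and the lactate importer Slc16a1 by 1.09. Without day 10 replicate 3, in which 17 of the 19 were highest, 4 rose and 4 fell. The enzymes Aldoa (0.69), Pgk1 (0.46), Ldha (0.25) and Pkm (0.16) did not pass.

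Effector and adhesion genes moved less. All 7 NADPH oxidase genes had values of 0.01 to 0.75 and 0 passed. Of 15 integrin and migration genes, Itgb7, a beta integrin that eosinophils carry, rose by 1.29, and Itgax and Cx3cr1, found on dendritic cells and monocytes, fell by 1.67 and 1.81. Of 25 lysosome genes, Man2b1 rose by 1.26, and Ctsz and Ctss fell by 1.41 and 1.18. Without day 10 replicate 3, in which 18 of the 25 were highest, 5 lysosome genes fell. Immediate early genes fell in 8 of 25 and 1 rose, with a median of -0.75, and 10 fell without day 10 replicate 3. Among them the orphan receptor Nr4a3 fell by 2.78, Atf3 by 1.82 and Jun by 1.44. Fos (-2.06) went from 9.41 ± 0.119 to 7.35 ± 0.269, after 6.11 before IL-5. Fosl2, a FOS family member, rose by 1.24.

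Most growth genes lay lower at day 10, few of them by 2-fold or more. DNA replication genes had a median of -0.78 with 36 of 37 below 0, and 35 had an adjusted p under 0.05, against 31.9% of all genes in either direction and 20.2% lower. Of these, 6 fell by 2-fold or more: the licensing factor Cdt1 (-1.18), the primase Prim1 (-1.18), Gins1 (-1.10), the helicase subunits Mcm2 (-1.09) and Mcm6 (-1.05), and Rfc4 (-1.00). With array medians subtracted 2 fell, and 7 without day 10 replicate 3. Cdt1 stood at 8.70, 8.89 and 8.69 at day 4 and at 7.50, 7.56 and 7.70 at day 10, after 9.65 before IL-5. Mitosis genes had a median of -0.56 and all 31 lay below 0, with 27 past the adjusted p alone and 0 at 2-fold. Bub1, of the spindle checkpoint, was at -0.88, Aurkb at -0.75, Cdk1 at -0.61 and the proliferation marker Mki67 at -0.19. Mki67 was 10.11 ± 0.065 at day 4 and 9.91 ± 0.086 at day 10, still close to its 10.16 before IL-5.

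Among 20 genes of cyclins, their kinases and inhibitors, 2 rose and 3 fell, with a median of -0.06. Rbl2, the pocket protein p130 of quiescent cells, rose by 1.36 and Ccng2, a cyclin linked to arrest, by 1.45. Cdk4 fell by 1.05, and stood at -0.94 with array medians subtracted. Ccnd1 was at 6.52, 6.06 and 7.33 on the day 10 arrays and at 8.42, 8.70 and 8.60 at day 4. Ccnd3, the third D-type cyclin, stood 0.87 higher and did not pass, and the inhibitor Cdkn1b stood 0.56 higher, with 1.26 on its other, dimmer probe set.

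Ribosome biogenesis genes were all 32 below 0, with a median of -0.72, 30 past the adjusted p alone and 4 fallen by 2-fold: Rrp1b (-1.10), Tsr1 (-1.09), Nop16 (-1.07) and the pseudouridine synthase Dkc1 (-1.00). None of the 4 kept a 2-fold change after quantile normalization or with array medians subtracted, and 8 fell without day 10 replicate 3. Their mean level went from 9.68 before IL-5 to 8.58 at day 4 and 7.89 at day 10. Aminoacyl tRNA synthetases had a median of -0.41 and oxidative phosphorylation genes of -0.34. At 2-fold 0 of 18 and 0 of 30 passed, and by adjusted p alone 13 and 20. Over all genes 31.9% passed the adjusted p alone, 20.2% of all genes being lower. Genes of protein folding and stress in the endoplasmic reticulum had a median of -0.16, and 0 of 26 passed at 2-fold.

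The letters TTTGAA of the cell cycle homology region were in 20 of 26 mitosis promoters and in 15.2% of all promoters, and TTCCCGC of an E2F site in 12 of 30 DNA replication promoters and 6.5% of all. CCAAT, the letters of an NF-Y site, was in 20 of 26 mitosis promoters, 19 of 30 DNA replication promoters and 38.2% of all. Among genes that fell, TTTGAA was in 14.8% and TTCCCGC in 9.19% of promoters, and among those that rose, in 9.84% and 6.99%. These shares describe letters within 250 bases before and 50 after the start, on both strands.

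Of the 15 largest falls, 11 were in genes on the lists of other lineages, while all 34 lists together held 666 of the 19938 genes. The lists were chosen with earlier results of these data known, so part of this overlap is built in. Lists of neutrophil granules, dendritic cells, plasmacytoid dendritic cells and MHC class II had medians from -1.28 to -2.74, whereas erythroid markers, already low at day 4, had a median of 0.02. Markers of T and NK cells, of megakaryocytes and of stroma had medians of 0.04, -0.27 and 0.14, and of -0.02, -0.47 and -0.09 without day 10 replicate 3.

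**Figure D4:**
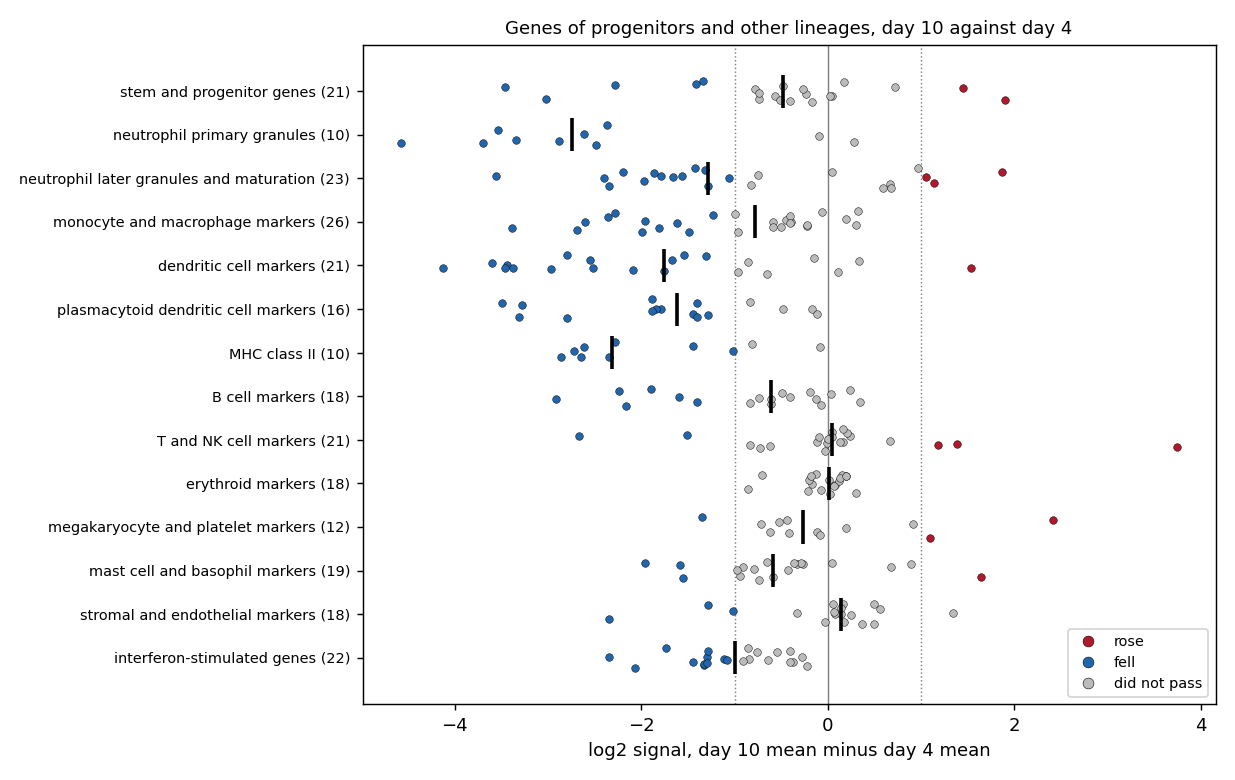
Change in log2 signal from day 4 to day 10 for the measured members of 14 gene lists of progenitors, other lineages and interferon response (number of genes in brackets), with red points for genes that rose, blue for genes that fell, grey for those that did not pass and a black bar at the median. Dotted lines mark 2-fold. The lowest medians are those of neutrophil primary granules (-2.74) and MHC class II (-2.32).

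The primary granule list, mostly of granule genes made by promyelocytes on the way to neutrophils and monocytes, fell in 8 of 10 members. Its median was -2.74 against 0.02 over all genes. Cathepsin G, Ctsg, fell most of all named genes. It stood at 10.93, 11.06 and 11.03 at day 4 and at 5.87, 6.04 and 7.39 at day 10, a 23.8-fold fall (adjusted p = 1.09e-07). Myeloperoxidase, Mpo, went from 12.60, 12.58 and 12.71 to 8.17, 8.83 and 9.79, a log2 change of -3.70 ± 0.28 (SE; adjusted p = 5.74e-07). Neutrophil elastase, Elane, went from 11.08, 11.08 and 11.11 to 6.81, 7.46 and 8.41 (-3.53; adjusted p = 8.58e-07). In these 3 genes every day 10 array was below every day 4 array, and replicate 3 was the highest of its group each time. Without that array the changes were -5.05 for Ctsg, -4.13 for Mpo and -3.96 for Elane. Mpo and Elane had been near their day 4 levels before IL-5, at 12.71 ± 0.082 and 11.49 ± 0.154. Proteinase 3, Prtn3, fell by 3.34 and the ficolin Fcnb by 2.88. The protease inhibitor Serpinb1a (-2.61) and Ms4a3 (-2.48), a marker of granulocyte-monocyte progenitors, fell too. Nkg7 fell by 2.37. The protease inhibitor Cst7 at 0.28 and the protease Prss57 at -0.09 did not pass.

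The promoters of Mpo and Elane are shown because both hold GAGGAAG, the letters of a PU.1 site, here in capitals, as did 4 of 8 primary granule promoters and 9 of 20 of the later neutrophil genes, against 13% of all promoters. Both are RefSeq sequences of GRCm38.p6 on the plus strand, Mpo on chr11:87793534-87793833 with 2 matches and Elane on chr10:79886062-79886361 with 1 match.
Mpo: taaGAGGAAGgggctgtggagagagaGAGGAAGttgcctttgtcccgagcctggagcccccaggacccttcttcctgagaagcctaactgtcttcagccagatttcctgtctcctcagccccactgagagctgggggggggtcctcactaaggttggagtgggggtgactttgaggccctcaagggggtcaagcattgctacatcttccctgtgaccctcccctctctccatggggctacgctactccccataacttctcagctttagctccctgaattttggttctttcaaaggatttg
Elane: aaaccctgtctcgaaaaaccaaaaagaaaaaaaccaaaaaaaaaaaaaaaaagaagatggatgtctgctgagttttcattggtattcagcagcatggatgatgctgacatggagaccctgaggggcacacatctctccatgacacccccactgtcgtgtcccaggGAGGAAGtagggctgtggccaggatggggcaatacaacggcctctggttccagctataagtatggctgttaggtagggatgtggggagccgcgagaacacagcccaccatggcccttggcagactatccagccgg
AGATAA, the motif shown for Ccr3 and Il5ra, was in 0 of the 8 primary granule promoters and in 9.55% of all. Other lists with falls did hold it. It was in 2 of 7 MHC class II promoters, 3 of 11 plasmacytoid dendritic cell promoters and 2 of 14 dendritic cell promoters. Interferon-stimulated genes held it in 4 of 17 and later neutrophil genes in 4 of 20.

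Later neutrophil genes fell in 13 of 23 and rose in 3, with a median of -1.28, and 14 fell and 4 rose without day 10 replicate 3. The chitinase-like gene Chil3 went from 10.69, 10.25 and 10.79 to 6.17, 6.98 and 7.91, an 11.8-fold fall (adjusted p = 2.80e-06), and again replicate 3 was the highest of its group. The cathelicidin Camp fell by 2.20, from 10.48 ± 0.015 to 8.28 ± 0.327, after 8.92 before IL-5. Lactoferrin, Ltf, fell by 1.97, S100a9 by 1.66 and S100a8 by 1.42, and the haptoglobin gene Hp changed by -2.35. Resistin-like gamma, Retnlg, rose in contrast, from 8.59 ± 0.070 to 10.45 ± 0.196, a change of 1.87. Ly6g, the antigen used to identify neutrophils, rose by 1.14 to 12.84 ± 0.112, and the protease Mmp25 by 1.05. Ly6g belongs to a family of close copies that an array can mix. The chemokine receptor Cxcr2 (0.68) and gelatinase B, Mmp9 (0.67), did not pass, nor did the growth factor receptor Csf3r (-0.82), which reached -1.03 without day 10 replicate 3.

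Dendritic cell genes fell in 14 of 21 and rose in 1, with a median of -1.76. Ccr7, the receptor that leads mature dendritic cells to lymph nodes, stood at 10.54, 10.35 and 10.53 at day 4 and at 6.27, 6.40 and 6.38 at day 10. That is a 17.4-fold fall (adjusted p = 8.18e-11), to below its level of 7.29 ± 0.065 before IL-5. Fscn1, the actin bundler of mature dendritic cells, fell by 3.60, from 9.83 ± 0.052 to 6.23 ± 0.308. Flt3, the receptor for FLT3 ligand, went from 9.46, 9.41 and 9.47 to 5.90, 5.83 and 6.22, an 11.0-fold fall (adjusted p = 7.61e-10), having stood at 9.54 before IL-5. The lectin Mgl2 fell by 2.97, the maturation marker Cd83 by 2.80, the endocytic receptor Ly75 by 2.55 and Clec9a, a marker of cross-presenting dendritic cells, by 2.52. The co-stimulatory genes Cd86 and Cd40 fell by 1.54 and 1.31. Day 10 replicate 3 was not set apart here, as the mean level of the list was 6.27, 6.32 and 6.40 on the 3 arrays. Xcr1 (-0.96), Itgae (-0.85) and Zbtb46 (-0.65) did not pass, and the list gene that rose was Cd24a (1.54), which granulocytes also carry.

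Genes of plasmacytoid dendritic cells, the type I interferon producers, fell in 12 of 16 and rose in 0, with a median of -1.62. Siglech, a surface marker of these cells, stood at 9.84, 10.15 and 10.04 at day 4 and at 6.73, 6.93 and 6.55 at day 10, a 9.69-fold fall (adjusted p = 1.57e-09). The transcription factor Spib fell by 3.49, the chemokine receptor Ccr9 by 3.31 and Tcf4 by 2.79. The nucleic acid sensors Tlr7 and Tlr9 each fell by 1.88. Interferon-stimulated genes fell in 11 of 22 with a median of -0.99, and all 22 lay below 0. Of the 22, 17 were highest in day 10 replicate 3 within its group, and 11 fell without it as well. A link between their falls and those of the plasmacytoid genes was not tested. The antiviral GTPases Mx1 and Mx2 fell by 2.34 and 2.07. Their day 10 arrays differed, Mx1 standing at 5.58, 6.08 and 6.46 against 8.23, 8.37 and 8.54 at day 4. Ifit1 (-1.29), Ifih1 (-1.11) and Xaf1 (-1.08) missed 2-fold without day 10 replicate 1, at -0.98, -0.89 and -0.89.

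MHC class II genes, which present peptides to CD4 T cells, fell in 8 of 10, with a median of -2.32, and in 7 without day 10 replicate 3. H2-Ab1, a beta chain, went from 10.60, 10.66 and 10.76 at day 4 to 7.72, 7.73 and 7.98 at day 10, a 7.27-fold fall (adjusted p = 1.30e-09). Ciita, the factor that switches these genes on, went from 8.10, 8.39 and 8.43 to 5.69, 5.46 and 5.60 (-2.72; adjusted p = 5.98e-09). The alpha chain H2-Aa (-2.64), the invariant chain Cd74 (-2.61), H2-Eb1 (-2.35) and H2-DMa, a peptide loader (-2.28), fell as well. Each was higher at day 4 than before IL-5 and lower at day 10 than before it, as in H2-Ab1 at 9.37 ± 0.097 before, 10.67 ± 0.080 at day 4 and 7.81 ± 0.150 at day 10. H2-Eb2 (-1.02) missed 2-fold under 4 of the alternatives, at -0.88 to -0.95, and H2-Oa (-0.08) and Ifi30 (-0.81) did not pass.

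The promoters of H2-Aa and H2-Eb1 are shown because class II promoters are known for a CCAAT box, and 5 of 7 matched here held CCAAT on either strand, against 38.2% of all promoters. CCAAT, or ATTGG where it lies on the other strand, is in capitals. H2-Aa is on chr17:34287774-34288073 on the minus strand with the match at -47, and H2-Eb1 on chr17:34305617-34305916 on the plus strand with 2 matches, both from RefSeq on GRCm38.p6.
H2-Aa: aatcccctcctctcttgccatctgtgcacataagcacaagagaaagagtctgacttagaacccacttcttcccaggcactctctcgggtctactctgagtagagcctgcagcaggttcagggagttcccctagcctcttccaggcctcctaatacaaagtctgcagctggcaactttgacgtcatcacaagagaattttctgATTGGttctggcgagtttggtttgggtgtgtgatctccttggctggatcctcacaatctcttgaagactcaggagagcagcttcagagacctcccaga
H2-Eb1: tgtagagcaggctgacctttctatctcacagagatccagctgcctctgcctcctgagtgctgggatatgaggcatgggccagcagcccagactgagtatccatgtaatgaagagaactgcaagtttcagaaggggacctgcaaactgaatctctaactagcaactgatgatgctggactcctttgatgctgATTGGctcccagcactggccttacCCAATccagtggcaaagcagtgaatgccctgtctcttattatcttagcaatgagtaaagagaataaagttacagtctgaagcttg
The letters CCAAT were no more frequent among genes that fell (37.3% of 620) or rose (36% of 386) than among all promoters.

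Monocyte and macrophage genes fell in 11 of 26 and rose in 0, with a median of -0.78, and 13 fell without day 10 replicate 3. Lipoprotein lipase, Lpl, went from 10.30, 10.30 and 10.33 to 6.93, 6.69 and 7.13, a 10.5-fold fall (adjusted p = 9.03e-10) in which replicate 3 did not stand apart. The scavenger receptor Cd36 (-2.69), the lectin Clec10a (-2.60), the endotoxin co-receptor Cd14 (-2.28) and Axl, a receptor for dying cells (-1.99), fell as well. Ccr2, the chemokine receptor of inflammatory monocytes, was at 8.79, 8.79 and 9.95 on the day 10 arrays against 11.44, 11.47 and 11.70 at day 4 (-2.36, and -2.75 without replicate 3). F13a1, a coagulation factor chain of monocytes, stood at 8.51, 8.72 and 10.54 against 10.87, 10.79 and 10.99. Its change of -1.62 was -2.26 without replicate 3, and its adjusted p was 0.0558 when the prior followed intensity. Msr1 fell by 1.23, with 1 day 10 array inside the day 4 range and calls lost under 5 of the alternatives, and its change was -1.84 without replicate 3. Mature macrophage genes mostly did not pass: C1qa was at -0.39, Csf1r at -0.50, Mertk at -0.22, Mrc1 at -0.06 and Gpnmb at 0.32. Without day 10 replicate 3, C1qa was at -0.60, Csf1r at -0.62, Mertk at -0.51, Mrc1 at -0.76 and Gpnmb at -0.21. Gpnmb thus turned in direction, and none of these 5 reached 2-fold. Other macrophage genes of the list did: C1qb and Cd68 did not pass with all arrays but fell without replicate 3, at -1.18 and -1.39.

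**Figure D5:**
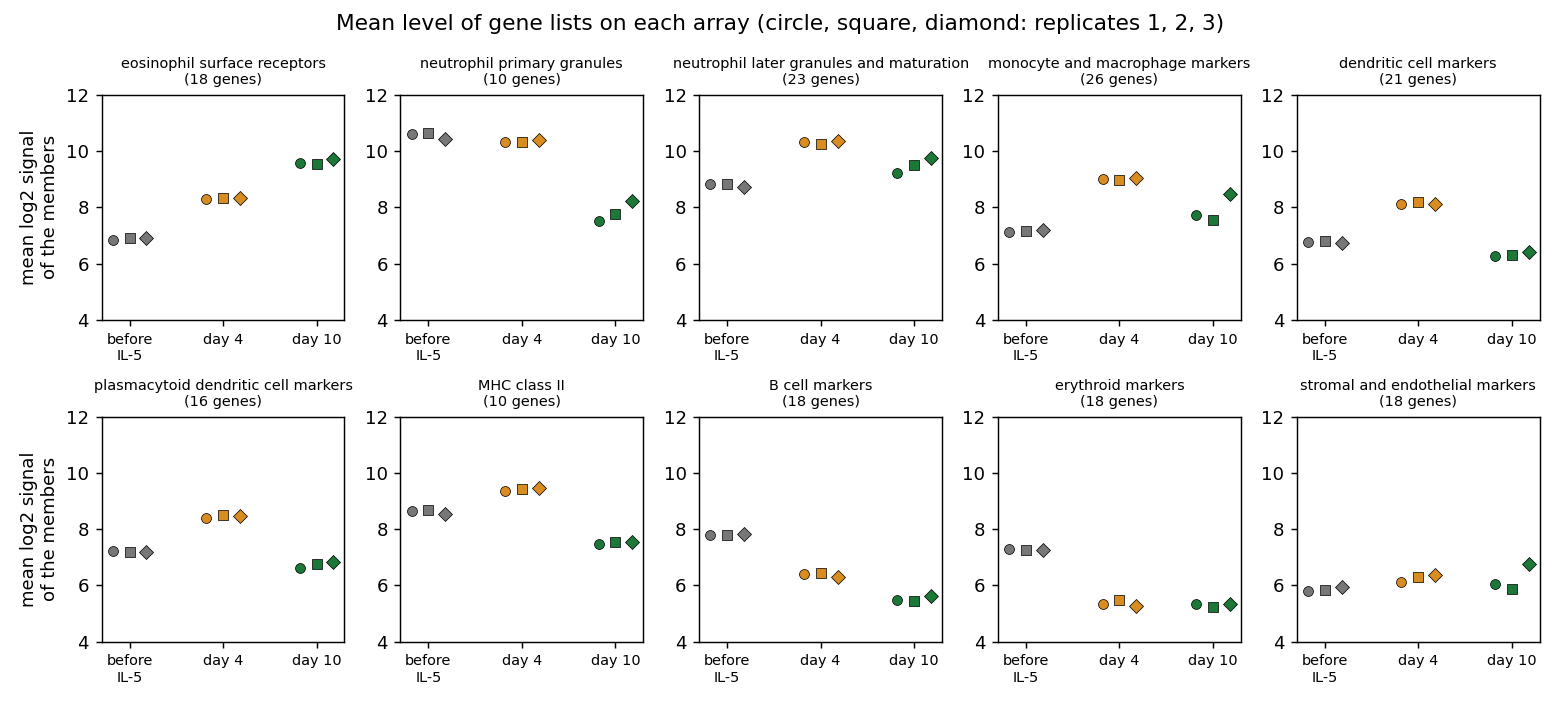
Mean log2 signal of the members of 10 gene lists on each array, in grey before IL-5, in orange for day 4 and in green for day 10, with circle, square and diamond for replicates 1, 2 and 3. The lists of dendritic cell, plasmacytoid dendritic cell and MHC class II genes are highest at day 4, erythroid markers are low from day 4 on, and the day 10 diamond lies highest for monocyte and macrophage (8.47) and stromal (6.75) markers.

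Lymphoid genes were mixed. B cell markers fell in 6 of 18 with a median of -0.61, from a list that averaged 7.80 in the cells without IL-5, 6.39 on day 4 and 5.52 on day 10. Cd72, a B cell and myeloid co-receptor, stood at 9.94, 10.01 and 10.12 at day 4 and at 6.94, 6.69 and 7.71 at day 10 (-2.91; adjusted p = 2.00e-07). The IL-7 receptor Il7r fell by 2.24, the B cell receptor chains Cd79b and Cd79a by 2.16 and 1.40, the adaptor Blnk by 1.89 and Ms4a1, CD20, by 1.60. Rag1 (-0.61), Ebf1 (-0.74) and Pax5 (-0.49) did not pass, and Rag1 and Ebf1 were already down to 5.43 and 5.86 at day 4 from 8.26 and 8.51 before IL-5.

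Of 21 T and NK cell genes, 3 rose and 2 fell, and 3 rose and 3 fell without day 10 replicate 3. Cd3g, a chain of the T cell receptor complex, stood at 3.71, 4.63 and 3.96 at day 4 and at 7.90, 7.75 and 7.87 at day 10, a 13.3-fold difference (adjusted p = 2.06e-08) from a day 4 level under the lower quartile of gene means. Its partner chain Cd3d rose by 1.39 to 6.46 ± 0.112, and the kinase Txk by 1.18. The other genes of the T cell receptor complex on the list did not pass, with Cd3e at 0.24 and Cd247 at -0.12, nor did Cd5 (0.00), Zap70 (0.16) or Thy1 (-0.03). The list averaged 5.54, 5.56 and 5.47 at day 4 and 5.50, 5.54 and 5.73 at day 10. The NK receptors Klrk1 and Klrd1 fell by 2.67 and 1.51.

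Progenitor genes fell in 5 of 21 and rose in 2, with a median of -0.48. Besides Flt3, they were Bcl11a, a factor of lymphoid and dendritic progenitors, from 8.80, 8.81 and 8.86 to 5.72, 6.00 and 5.69 (-3.02; adjusted p = 8.14e-10), and Kit, the SCF receptor, from 9.46, 9.79 and 9.58 to 7.29, 7.39 and 7.30 (-2.28; adjusted p = 9.01e-09). Sox4 fell by 1.41 and Cd34 by 1.34. Gfi1b, a repressor of erythroid and megakaryocyte cells, rose by 1.90, from 7.82 ± 0.054 to 9.72 ± 0.092, and had stood at 8.93 before IL-5. Ikzf2, an Ikaros family factor, rose by 1.45. Meis1 (0.17), Hoxa9 (-0.74) and Myb (-0.74) did not pass.

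Most erythroid, megakaryocyte and mast cell genes did not pass. Erythroid markers passed in 0 of 18, with a mean level of 7.26 in the cells without IL-5, 5.37 on day 4 and 5.30 on day 10, while the globin genes had no probe set naming 1 gene. Tfrc, the transferrin receptor of dividing cells, was at -0.86. The thrombin receptor F2r rose by 2.41, from 8.07, 8.02 and 7.89 to 10.38, 10.68 and 10.16, and the platelet integrin Itga2b by 1.10, while Thbs1, thrombospondin, fell by 1.35. Platelet factor 4, Pf4, at 0.20, and the glycoproteins Gp9 (-0.44) and Gp5 (-0.52) did not pass. Of 19 mast cell and basophil markers 3 fell: carboxypeptidase Cpa3 (-1.96), chymase Cma1 (-1.58) and Fcer1a (-1.55), a chain of the IgE receptor. Unlike the erythroid list, this list had a median of -0.59, with 15 below 0. By adjusted p alone 16 passed in either direction, against 31.9% of all genes. Cyp11a1, a steroid-forming enzyme, rose by 1.64. The mast cell tryptase Tpsb2 (-0.97) and the basophil protease Mcpt8 (-0.91) did not pass with all arrays, and 5 of the list fell without day 10 replicate 3. Of 18 stromal and endothelial markers, Kdr, Eng and Vcam1 fell (-2.35, -1.28 and -1.02), and 15 did not pass. Kdr was at 7.91 ± 0.141 on day 4 and 5.57 ± 0.200 on day 10, after 5.30 before IL-5, and Vcam1 missed 2-fold under 5 of the alternatives.

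Several of the 15 largest rises had no place on these lists. The inositol phosphatase gene Inpp5j rose by 4.12, the water and glycerol channel Aqp9 by 3.92 and Tmem71, a membrane protein gene, by 4.15. Aqp9 stood at 6.48, 6.62 and 6.13 at day 4 and at 10.25, 10.32 and 10.43 at day 10, above its 7.23 before IL-5. The transporter Slc16a9 rose by 3.80 on the probe set used, and its other, dim probe set gave 0.24. The actin regulator Enah rose by 3.76, the B cell scaffold gene Bank1 by 3.71, the matricellular gene Ccn3 by 3.69, the metalloproteinase Mmp27 by 3.66 and the plasminogen activator inhibitor Serpinb2 by 3.66. Bank1 is known from B cells, and of the 18 B cell markers listed 0 rose and 6 fell. The last of the 15 were Ccr1l1 (3.60), a relative of Ccr1, the myosin Myo1d (3.34) and the kinase Camk1 (3.19). None of the 15 lost its call under the alternatives tried. They were picked for size and lie far beyond 2-fold, so this is no separate support.

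The 15 largest falls were Ctsg, Ccr7, Mpo, Fscn1, Chil3, Elane, Spib, Flt3, Ccl22, Lpl and Il12b, described above, and 4 more. Dpp4, a peptidase of the cell surface, fell by 3.94, from 9.43, 9.68 and 9.49 to 5.78, 5.49 and 5.49. The NF-kappaB regulator Tnip3 fell by 3.61 and Kmo, an enzyme of tryptophan breakdown, by 3.42. Ifi205, an interferon-inducible gene with close copies, was at 5.15, 5.29 and 6.58 on the day 10 arrays and fell by 3.37. None of these 15 lost its call either, with the same limit.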

How the data were processed

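The deposited log2 signals per probe set were made by the authors with Affymetrix Expression Console 1.1.2637.26569, per the submitters' processing notes, and the sample descriptions, per the labels, name a default gene-level RMA summary. Its annotation and genome build are not stated in the sources used. RMA compresses dim genes and aligns distributions. No detection calls were used. Of 35557 probe sets, 21789 named 1 gene, and the brightest over the 9 arrays was kept for each of 19938 symbols, 999 of which had several.

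Day 10 was set against day 4 by a linear model of 3 group means over all 9 arrays (limma 3.58.1 under R 4.3.3, eBayes with 6 residual and 6.47 prior degrees of freedom, two-sided, Benjamini-Hochberg over all genes). On simulated arrays of 19938 genes this comparison found 99% of 100 genes planted at a log2 change of 1.5, 100% of 100 at 3, and made 0 false calls. The simulated noise was independent between genes, had the same SD in every group and held no array like day 10 replicate 3. It therefore checks that the procedure runs as intended and gives no error rate for these arrays. Lists (34, with 688 of 745 memberships measured) were described by counts and medians, with no set test. The members and lists were chosen with earlier results of these data known. Named genes were the 15 largest rises and 15 largest falls whose arrays did not overlap, predicted genes, olfactory receptors and small RNAs left out, and any list member. Alternatives covered scaling, the choice of probe set, the model and leaving out each array. Without detection calls, precision rests on 3 arrays a group.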

Additional observations from a re-analysis of the deposited data

Results flagged for a closer look

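Probe sets that name no gene or several genes were left out of the comparison and also differed between the days. Fitted in the same way, 226 of 12147 unnamed probe sets were higher at day 10 and 164 were lower, 3.21% of them in all. Among 1621 probe sets naming several genes, 11 were higher and 35 lower, or 2.84%. For probe sets naming 1 gene the share was 6.25%. No control arrays bear on this, and no gene is named for these probe sets.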

How the results depend on the processing

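The 487 rises and 794 falls depended most on the call rule, with 2336 higher and 4028 lower by adjusted p alone and 103 and 134 at 4-fold or more. Leaving out each day 4 or day 10 array gave 472 to 508 rises and 712 to 968 falls, the last without day 10 replicate 3. Quantile normalization gave 553 and 646, and array medians subtracted 579 and 654. Of 682 named or list genes, 29 lost and 26 gained a call under at least 1 of 18 alternatives, and 0 reversed. Lysosome genes rose in 3 rather than 1 with array medians subtracted, and 2 without day 4 replicate 1. The replicate numbers shared by the titles were not treated as pairs. Sample descriptions number the day 4 arrays 1, 2 and 3 and the day 10 arrays 4, 5 and 6. Same-numbered day 4 and day 10 arrays deviated together with correlations of -0.101, 0.004 and 0.077, and unlike-numbered ones with -0.163 to 0.184. With 3 arrays a group, these values cannot decide whether samples were paired. With the replicate number as a block 487 genes rose and 795 fell. Alternatives without an array from before IL-5, chosen after seeing the data, gave 487 and 794 each. Differences between dim signals and between signals near the top of the range may be understated, and fold sizes there are uncertain.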

Other observations

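Genes outside the lists and the named 30, chosen here after their values were seen, also changed between the days. Among those that rose, Padi4, which converts arginine to citrulline in granulocyte chromatin, stood at 7.33 ± 0.260 at day 4 and 10.24 ± 0.078 at day 10, a change of 2.91 (adjusted p = 7.41e-09). The ATP-gated channel P2rx1 rose by 2.91, the thrombin receptor family member F2rl2 by 2.84, the coagulation factor gene F5 by 2.99 and the lipase Mgll by 3.08. The retinoid receptor Rxra rose by 2.29 and the Ikaros family factor Ikzf3 by 2.72. The cell cycle inhibitor locus Cdkn2a rose by 1.92, from 6.02 ± 0.178 to 7.94 ± 0.359. Retnla, which encodes resistin-like alpha, rose by 2.15 from a dim 3.41 ± 0.126.

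Among those that fell, Kynu, of the same tryptophan pathway as Kmo, changed by -3.29 and Ly86, a partner of a Toll-like receptor relative, by -3.24. The cytokine receptor chain Il6st changed by -3.20 and the transcription factor Stat4 by -2.62. The class II chain H2-Ea changed by -3.11, the lectin gene Clec4a4 by -3.27 and the granzyme B inhibitor Serpinb9 by -2.88. In day 10 replicate 3 the matrix proteoglycan Vcan stood at 8.11 against 5.63 and 5.61 in the other 2 arrays, and the urokinase gene Plau at 8.95 against 7.04 and 6.64, and neither passed between the days.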
